A study of Brassica napus with 33 samples.

Results

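The genes described here are 8 genes of oilseed rape (Brassica napus) annotated in the study as enzymes of cysteine and methionine synthesis and of methionine salvage, out of 101040 genes listed in each library. They were chosen from the study's list of sulphur metabolism genes that, in roots after 10 days, changed under 1 macronutrient deprivation and under no other in the same direction. The 10-day comparisons with the control thus chose the genes. Their fold changes, and which of them passed a threshold, are given below only to describe the genes, with no p-values and as no evidence for a change. 3 genes were listed under N deprivation, with 2 under S deprivation and 3 under K deprivation. Of the 8 genes, 5 lie on the A subgenome and 3 on the C subgenome by their names. All 8 were counted and passed the filter on low counts in the main fits. The identifiers are those of the Genoscope annotation, and the letters nn in a name mark a gene with no assigned chromosome.

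Sulphate taken up by the root is activated, reduced to sulphide and joined to O-acetylserine by cysteine synthase to give cysteine. Cysteine supplies the sulphur of glutathione and of methionine, and most methionine that is not built into protein is activated to S-adenosylmethionine, the methyl donor of the cell and the precursor of ethylene, nicotianamine and the polyamines. Making these products releases methylthioadenosine, and the salvage cycle returns its sulphur to methionine.

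Roots of wild-type Trezzor plants grown hydroponically were sampled as 3 replicates, biological by the labels, in each of 11 conditions, giving 33 stranded poly(A) libraries. All plants had 24 days of complete solution before a single element was withheld. The 6 macronutrient deprivations (N, Mg, P, S, K or Ca withheld) were harvested on the date of the 10-day control, and the Cl, Co and Mn deprivations on the date of the 22-day control, while both controls stayed on complete solution. Day and element therefore cannot be told apart between the 10-day and 22-day sets, and each deprivation was compared with the control of its own date. In whole roots, fewer cells of a type and less RNA per cell cannot be told apart.

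Libraries held 10115284 to 22841765 counts on genes (median 14050278), and 0.419 to 0.782% of counts were on the opposite strand. The study also lists 5 genes for SULTR1.1 and SULTR1.2, sulphate transporters of the root surface, chosen because they rose in these S-deprived libraries, so their levels are no independent check of the labels. In this fit 4 of the 5 were higher in S-deprived than in control roots (BnaC07g18000D, BnaA02g10510D, BnaC02g14670D and BnaA07g33860D), a description for the same reason. Of all genes, 4.22% rose under S deprivation. BnaA02g10510D, BnaC02g14670D, BnaA07g33860D and BnaC06g38480D fell in N-deprived and in P-deprived roots, and BnaC06g38480D in Ca-deprived roots. Falls were called for 11.1% of all genes under N deprivation, 14.3% under P and 13.9% under Ca. BnaA02g10510D and BnaC02g14670D were near absent in N-deprived libraries, with 0, 1 and 1 and with 0, 2 and 1 counts. BnaA07g33860D had 1, 20 and 3 counts there, and BnaC06g38480D had 55, 85 and 50. BnaC07g18000D had 0 in each, as in the 10-day controls. In P-deprived libraries BnaA02g10510D had 1, 0 and 6 counts and BnaC02g14670D had 15, 6 and 8. The 10-day controls held 38, 30 and 34 counts of BnaA02g10510D and 51, 46 and 42 of BnaC02g14670D. Replicates 1 and 2 of the 22-day control stood apart from all other pairs. Their counts differed by a mean chi-square of 1.26 per gene over 56206 genes, where sampling alone gives about 1, and the next closest pair of one condition (N-deprived replicates 1 and 2) differed by 4.71. The pair thus differed a little beyond sampling noise and was kept as separate libraries, but the spread of the 22-day control rests partly on it, and the 22-day results are also given with the pair summed into 1 library. Whether the pair came from 1 RNA sample was not tested.

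Levels are in CPM (counts scaled to library size) on one scaling over all 33 libraries, and levels are compared only within a gene, since no gene lengths were used. Fold changes are log2 ratios of deprived over control roots from edgeR's quasi-likelihood fit, with a standard error (SE), and a gene is said to rise or fall where the Benjamini-Hochberg adjusted p over all genes tested was at most 0.05.

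**Figure D1:**
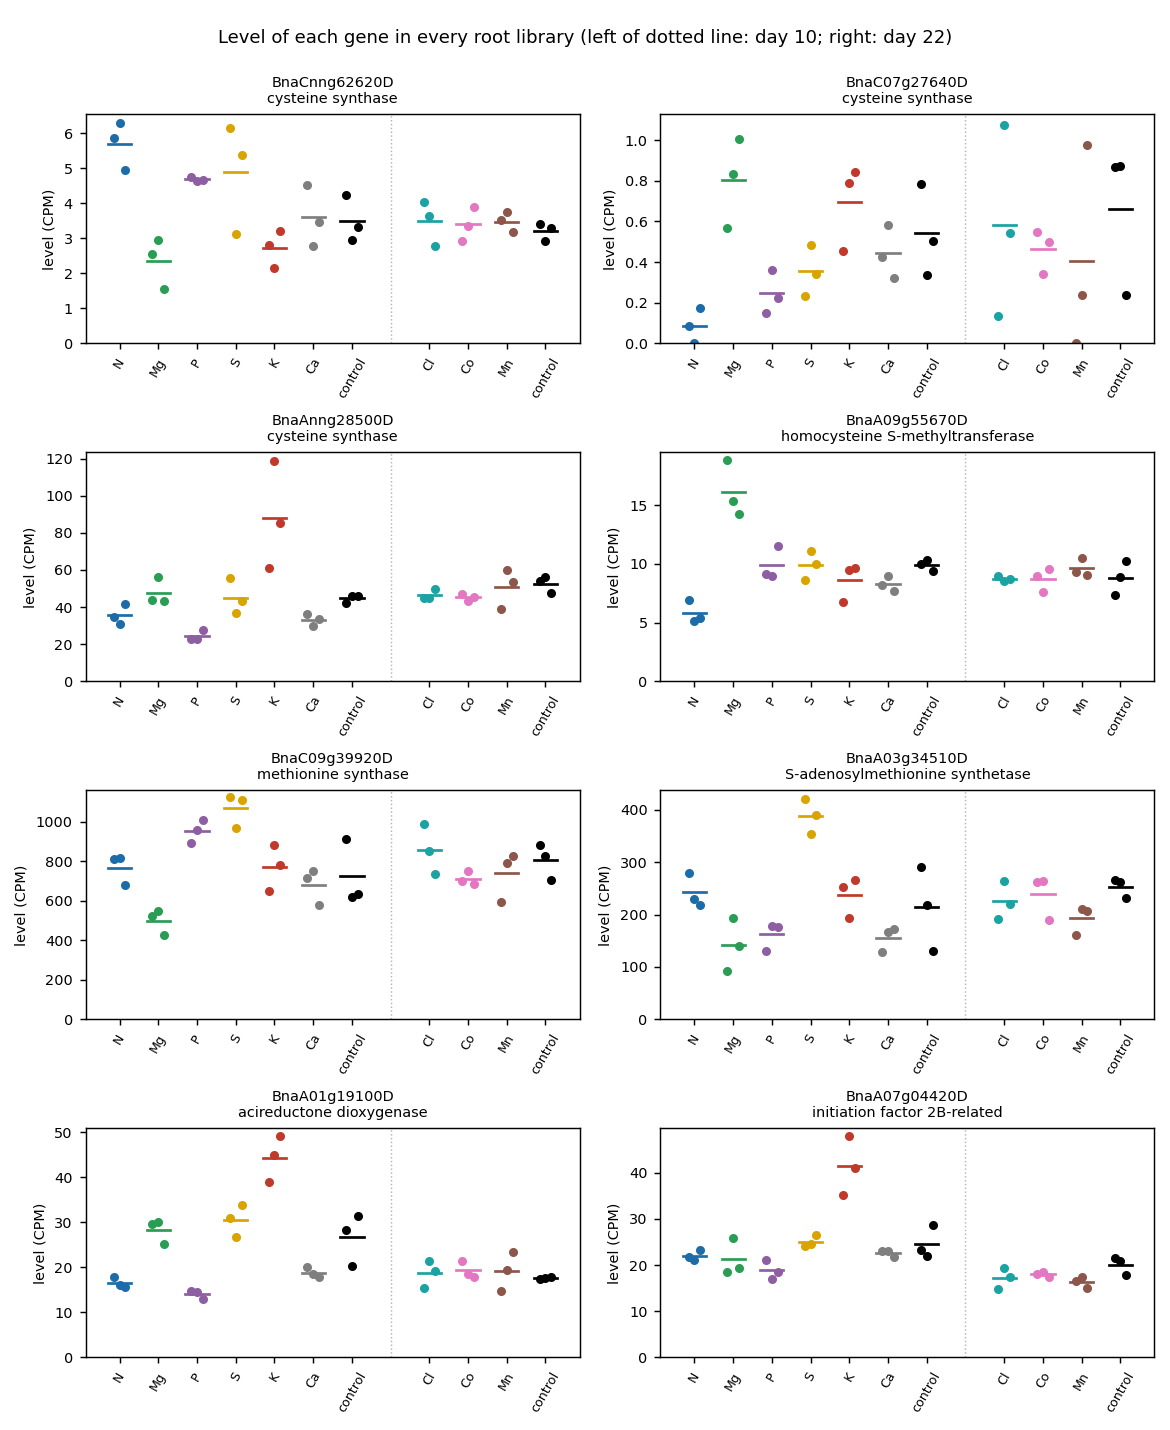
Level of each of the 8 genes in CPM (vertical axis, from 0) in every library, by condition; points are the 3 replicates and the line is their mean. The 3 K-deprived libraries are the 3 highest of 33 for BnaAnng28500D, BnaA01g19100D and BnaA07g04420D, and the 3 S-deprived libraries are the 3 highest for BnaA03g34510D. These are the deprivations under which the genes were chosen.

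Of the 3 cysteine synthase genes, 2 were listed under N deprivation, with changes of opposite sign there, and 1 under K deprivation. BnaCnng62620D stood at 5.87, 6.31 and 4.95 CPM in N-deprived roots, against 4.24, 2.96 and 3.31 CPM in 10-day control roots. All N-deprived libraries lay above all controls, as 18.7% of all genes did. The log2 fold change was 0.71 ± 0.26 (SE), just outside the adjusted threshold. The gene passed under the likelihood ratio test, which the study used. S-deprived roots held 6.16, 3.11 and 5.40 CPM, so that the N-deprived libraries ranked 1, 3 and 5 of the 33. Mg-deprived roots were lowest, with 2.55, 2.96 and 1.55 CPM, and 9 of the 10 pairs of conditions that neighbour each other in the order of means overlapped.

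BnaC07g27640D was barely expressed, and its counts are given instead of CPM. N-deprived libraries held 1, 0 and 3 counts, against 10, 4 and 7 in 10-day controls, so the deprived group held 4 counts in all and the control 21. The counts of the groups did not overlap (in CPM, 16.5% of all genes lay wholly lower). Scaled for depth, the ratio was 0.165 with a counting interval of 0.0413 to 0.490 (95%, counting error only), and the fitted log2 fold change was -2.48 ± 0.63 (SE), which passed the threshold but depends on the prior count. Mg-deprived libraries held most, with 8, 18 and 13 counts, and every pair of neighbouring conditions overlapped. Leaving out N-deprived replicate 3 gave a fold change of -3.58. In the fit over all 33 libraries, and at an adjusted p of 0.01, the fall no longer passed. With only N-deprived and control libraries in the fit, the gene failed the filter on low counts. It also failed where CPM above 1 was required in at least 50% of libraries. Counts in other conditions thus carried it past the filter of the main fit.

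BnaAnng28500D, the third cysteine synthase, rose in K-deprived roots, where it stood at 60.8, 119 and 85.2 CPM, against 42.3, 46.1 and 45.8 CPM in 10-day controls. The 3 K-deprived libraries exceeded all other 30 (8.25% of all genes lay wholly above the controls under K deprivation). The log2 fold change was 0.98 ± 0.20 (SE). K-deprived replicate 2 was the highest library of the 33, and without it the value was 0.70 and no longer passed the threshold. In P-deprived roots the same gene fell to 22.8, 23.0 and 27.5 CPM, with a log2 fold change of -0.88 ± 0.21 (SE). N-deprived and Ca-deprived libraries also lay below all 10-day controls, with 34.5, 31.2 and 41.4 CPM and 36.1, 29.8 and 33.4 CPM, and neither difference passed. Of all genes, 16.5% lay wholly below under N and 19.5% under Ca deprivation.

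Methionine is made by methylation of homocysteine. BnaA09g55670D, annotated as homocysteine S-methyltransferase, the enzyme that in plants makes methionine from homocysteine and S-methylmethionine, fell to 6.89, 5.14 and 5.42 CPM in N-deprived roots, against 9.97, 10.3 and 9.43 CPM in 10-day controls. These libraries ranked 30, 32 and 33 of the 33 (16.5% of all genes lay wholly below the controls). The log2 fold change was -0.76 ± 0.17 (SE). Mg-deprived roots showed the opposite, at 18.8, 15.4 and 14.3 CPM, above all other libraries (9.5% of all genes lay wholly above the controls). The log2 fold change there was 0.70 ± 0.16 (SE). The Mg value lost the threshold when control replicate 1 or 2 or Mg-deprived replicate 1 was left out, while the N value kept it without any one library. In the other 9 conditions the means lay between 8.28 and 9.91 CPM. A second gene with the same annotation, BnaA06g33260D, is not among the 8 and had a log2 fold change of -0.91 ± 0.33 (SE) under N deprivation, which did not pass. The study, by a likelihood ratio test, lists this gene under N deprivation. Its 10-day controls ranged from 23.9 to 61.4 CPM.

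BnaC09g39920D, a methionine synthase, which transfers the methyl group of methyltetrahydrofolate to homocysteine and in higher plants needs no cobalamin, stood at 1124, 968 and 1110 CPM in S-deprived roots, against 915, 621 and 635 CPM in 10-day controls. All S-deprived libraries lay above all controls, as 14.4% of all genes did, with ranks 1, 2 and 5 of 33. The log2 fold change was 0.57 ± 0.19 (SE), just outside the threshold, and the gene passed under the likelihood ratio test. P-deprived roots came next, at 892, 957 and 1007 CPM. Mg-deprived roots were lowest, at 522, 546 and 427 CPM, below all 10-day controls (as 8.38% of all genes were). Their difference did not pass either, though it did under DESeq2. Without control replicate 1, the highest 10-day control, the S value was 0.76 and passed. The P-deprived value, also higher, then passed too.

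BnaA03g34510D, an S-adenosylmethionine synthetase, rose in S-deprived roots, where it held 421, 354 and 389 CPM, against 291, 219 and 131 CPM in 10-day controls. The 3 S-deprived libraries were the highest of 33 (14.4% of all genes lay wholly above the controls under S deprivation). The log2 fold change was 0.87 ± 0.27 (SE), just inside the threshold. The 10-day controls spread widely, and without replicate 1 the value was 1.15. Leaving out control replicate 2 or 3 or any one S-deprived library took the call away. The mean over Mg-deprived roots was lowest at 142 ± 50.9 CPM (SD, n = 3), and 9 of 10 neighbouring pairs of conditions overlapped.

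**Figure D2:**
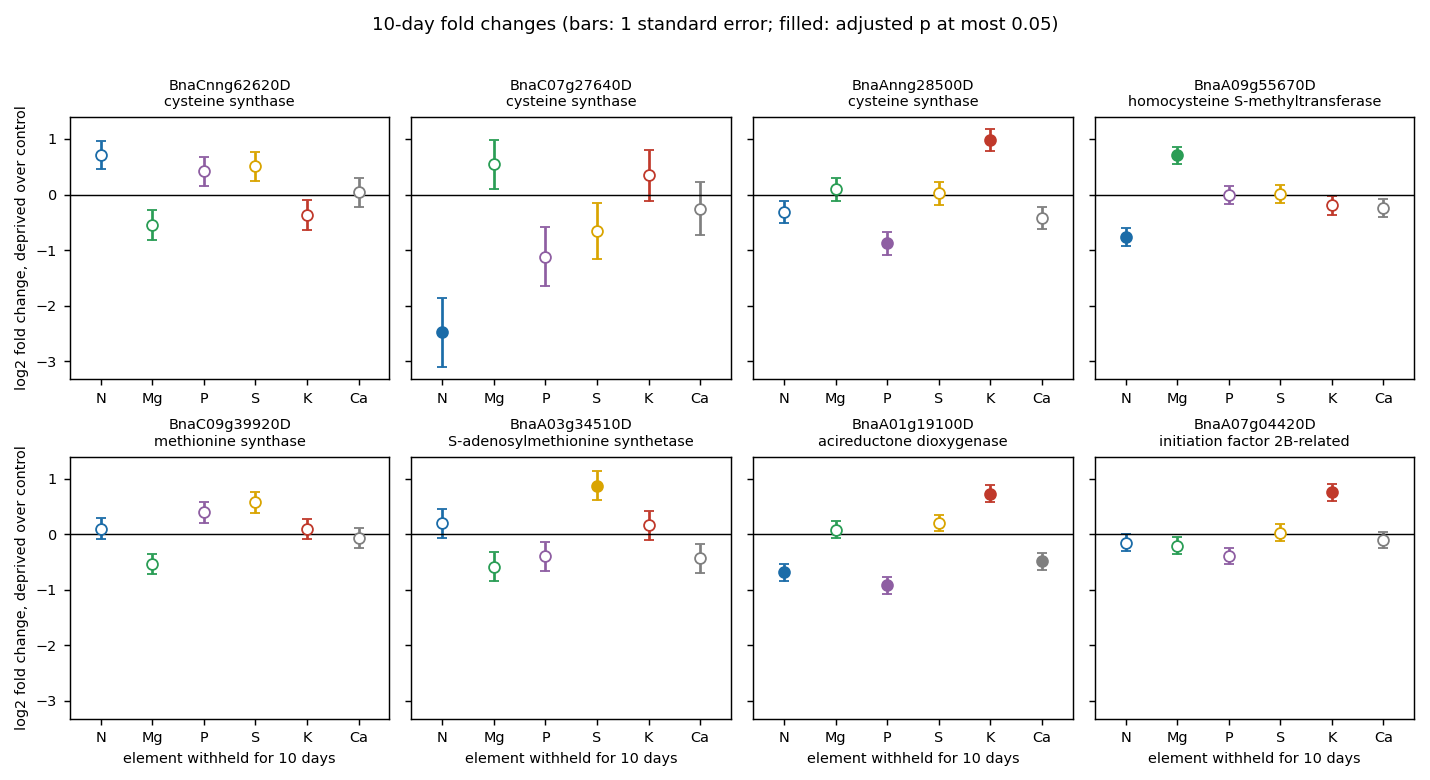
Log2 fold change of each gene under each 10-day deprivation (element on the horizontal axis) over the shared control (points; bars are 1 standard error; filled points passed an adjusted p of 0.05). Filled points under the condition that chose a gene were selected for, and are not evidence.

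The 2 remaining genes belong to, or are close to, the salvage of methylthioadenosine. BnaA01g19100D, an acireductone dioxygenase, which forms the keto acid precursor of methionine late in the cycle, rose in K-deprived roots to 38.8, 45.0 and 49.0 CPM, against 28.2, 20.3 and 31.5 CPM in 10-day controls. Its log2 fold change was 0.73 ± 0.15 (SE). The K-deprived libraries were the 3 highest of 33 (8.25% of all genes lay wholly above the controls). The gene fell in N-deprived roots to 17.9, 16.0 and 15.6 CPM (log2 fold change -0.69 ± 0.15 SE). In P-deprived roots it fell to 14.8, 14.6 and 13.0 CPM (-0.92 ± 0.15 SE), and in Ca-deprived roots to 20.1, 18.4 and 17.9 CPM (-0.49 ± 0.15 SE). The Ca value was lost on leaving out Ca-deprived replicate 2 or 3 or control replicate 1 or 3.

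BnaA07g04420D is annotated as initiation factor 2B-related, a family that includes the methylthioribose-1-phosphate isomerase of the salvage cycle, known from yeast and Arabidopsis, as well as translation factor subunits, and the annotation does not say which it is. It rose in K-deprived roots to 35.2, 48.0 and 41.1 CPM, against 23.2, 21.9 and 28.7 CPM in 10-day controls, with a log2 fold change of 0.75 ± 0.15 (SE). The K-deprived libraries were again the 3 highest of 33 (8.25% of all genes lay wholly above the controls). P-deprived roots held 21.1, 17.0 and 18.4 CPM, below all controls (as 19.2% of all genes were), and did not pass. A second gene with this annotation, BnaCnng67980D, had 40.3, 55.4 and 52.2 CPM in K-deprived roots and 32.3, 36.8 and 37.4 CPM in 10-day controls, with a log2 fold change of 0.47 ± 0.12 (SE) that did not pass. By the likelihood ratio test of the study it is listed under K deprivation.

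Leaving out single libraries took K-deprived calls away, in part with little change in the fold. Without K-deprived replicate 2 none of the 3 genes passed, at log2 fold changes of 0.70 for BnaAnng28500D, 0.72 for BnaA01g19100D and 0.63 for BnaA07g04420D. Without 10-day control replicate 2 none passed either, at 1.01 for BnaAnng28500D, 0.57 for BnaA01g19100D and 0.68 for BnaA07g04420D. Without K-deprived replicate 3 BnaA07g04420D passed, and BnaAnng28500D and BnaA01g19100D (0.66) did not. BnaAnng28500D also lost the threshold without 10-day control replicate 1 or 3, at 0.93 and 1.01. Under the other settings and leave-outs 1289 fold changes of the 8 genes were recomputed. Only those of the 11 comparisons that had passed were checked for sign, and 0 changed it. Some that had not passed did, such as BnaA03g34510D under K deprivation, which ran from -0.09 to 0.44.

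**Figure D3:**
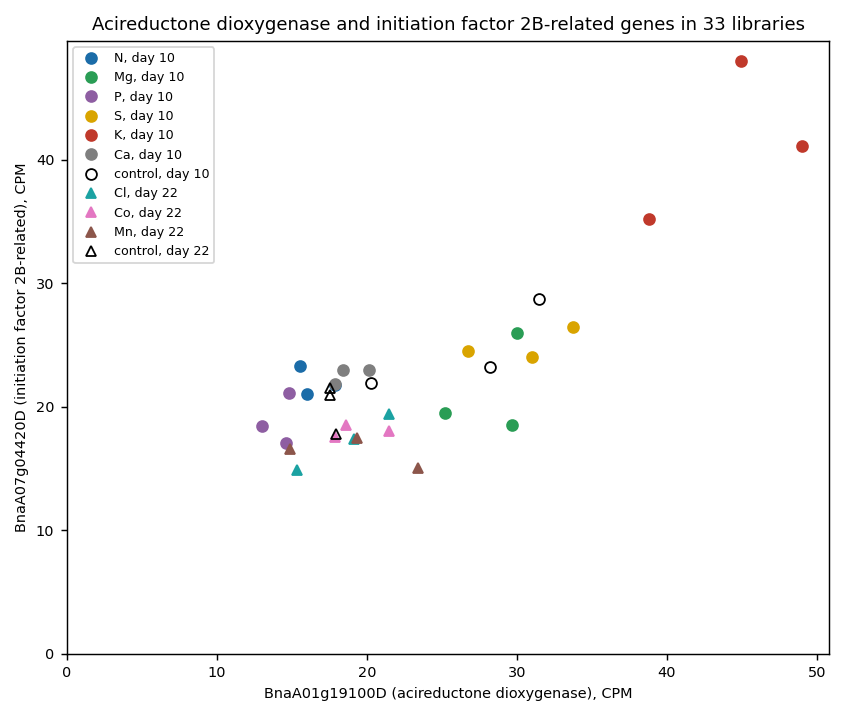
Level of BnaA07g04420D (vertical, CPM) against BnaA01g19100D (horizontal, CPM) in all 33 libraries; circles are day 10 and triangles day 22, controls open. The 3 K-deprived libraries lie apart at the upper right. Both genes were chosen as raised under K deprivation in these libraries, so their place is not evidence.

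At 10 days, 3 of the 8 genes passed under N deprivation, all lower (of 56667 genes tested, 20.1% passed there, 11.1% lower). Under Mg deprivation 1 passed, higher (3.58% of all genes passed, 2.34% higher). Under P deprivation 2 passed, both lower (29.3%, and 14.3% lower), and under S deprivation 1, higher (8.84%, and 4.22% higher). Under K deprivation 3 passed, all higher (1.26%, and 0.916% higher), and under Ca deprivation 1, lower (26.5%, and 13.9% lower). These counts add up to 11 of 48, and nothing is read from their size because the rule used these contrasts. Of the 11, 6 were in the deprivation that chose the gene. The other 5 all went the opposite way to the gene's own deprivation, as the choice allowed only that direction for a gene changed elsewhere. All 6 comparisons share the 3 control libraries.

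After 22 days without Cl, Co or Mn, which the choice of genes did not use, no gene of the 8 passed in any of 24 tests. The smallest adjusted p by edgeR was 0.443. At an unadjusted p of 0.05, 0 of the 24 tests passed, and no gene of all 54251 passed the adjusted threshold in any of the 3 comparisons (0% each by the quasi-likelihood test). Unadjusted, 4.1% passed under Cl, 10.3% under Co and 11.7% under Mn deprivation (2225, 5588 and 6326 genes). Other tools called up to 34 genes under Cl deprivation (DESeq2), 77 under Co and 182 under Mn (both edgeR likelihood ratio test), and 0 of the 8 genes under any alternative, the summed control pair included.

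BnaA07g04420D came nearest to the threshold. Its Mn-deprived libraries held 16.6, 17.5 and 15.1 CPM, against 21.5, 20.9 and 17.8 CPM in 22-day controls, with a log2 fold change of -0.27 (95% interval -0.55 to 0.01) and an edgeR quasi-likelihood p of 0.0601. BnaA03g34510D held 161, 211 and 206 CPM in Mn-deprived roots and 266, 262 and 231 CPM in 22-day controls, with a log2 fold change of -0.37 (-0.79 to 0.05). Both sets lay wholly below their controls. With the control pair summed, the value was -0.22 (-0.56 to 0.11) for BnaA07g04420D and -0.33 (-0.83 to 0.16) for BnaA03g34510D.

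Co is the metal of cobalamin, which the methionine synthase of higher plants does not need. BnaC09g39920D held 700, 751 and 686 CPM in Co-deprived roots and 881, 828 and 705 CPM in 22-day controls. Its log2 fold change was -0.16 (95% interval -0.61 to 0.30). BnaAnng28500D held 47.3, 43.3 and 45.4 CPM in Co-deprived roots and 54.2, 56.2 and 47.5 CPM in controls, a difference of -0.20 (-0.54 to 0.15). Its 3 Co-deprived libraries lay below all controls, which 10.5% of genes did. Under Mn deprivation 2 of the 8 lay wholly below (9.44% of genes). Over the 7 genes other than BnaC07g27640D, the 21 intervals reached from -0.79 to 0.58 on the log2 scale, a ratio of 0.577 to 1.49, so larger changes in either direction lay outside them. With the control pair summed into 1 library they reached from -0.83 to 0.67, a ratio of 0.564 to 1.59. For BnaC07g27640D the intervals were wider and reached from -2.69 to 1.58.

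**Figure D4:**
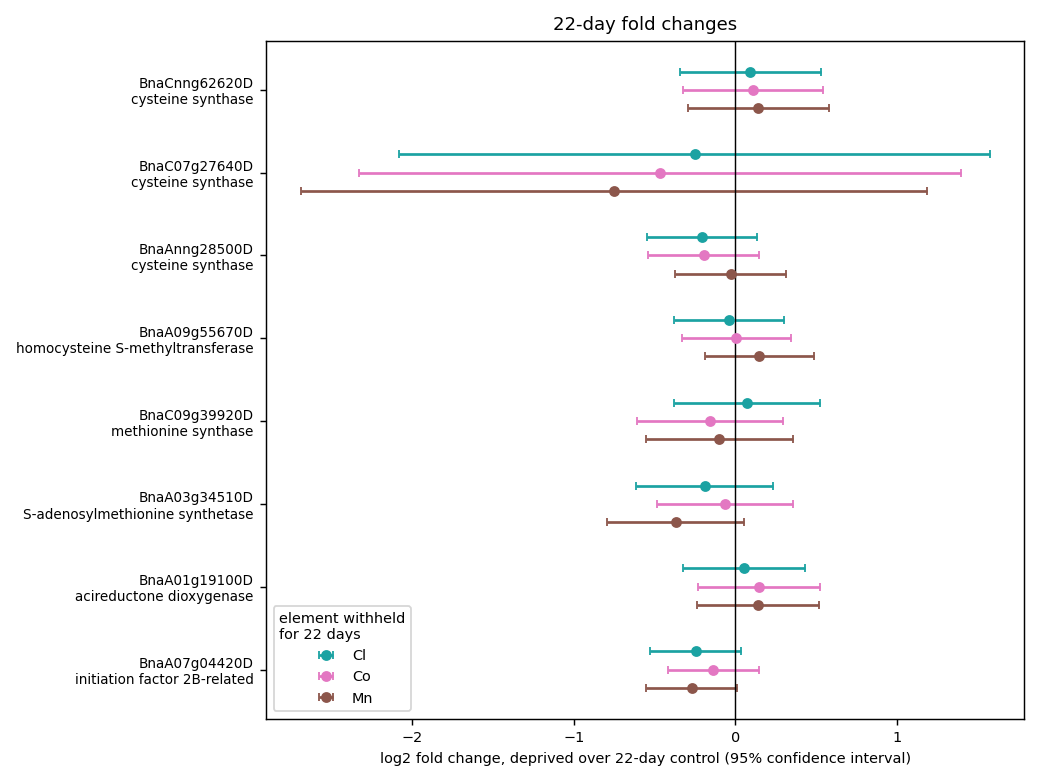
Log2 fold change of each gene after 22 days without Cl, Co or Mn over the 22-day control (points; bars are 95% confidence intervals). All 24 intervals include 0.

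Between the controls, 0 of the 8 passed with 22-day over 10-day control roots (0.647% of 57501 genes did, 372 genes by the quasi-likelihood test), and this comparison shares the 10-day controls with the choice of genes. BnaA01g19100D held 17.5, 17.6 and 17.9 CPM in 22-day controls and 28.2, 20.3 and 31.5 CPM in 10-day controls, with a log2 fold change of -0.59 ± 0.16 (SE). It was the gene called by DESeq2 and by the edgeR likelihood ratio test. BnaA07g04420D was also lower in all 22-day than 10-day controls (-0.29 ± 0.14 SE), so that 2 of the 8 lay wholly lower (6.68% of genes did), and BnaAnng28500D was the 1 wholly higher (0.23 ± 0.19 SE, with 7.67% of genes).

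Pairs of the 8 genes were compared by Pearson's r of log2 CPM over 33 libraries, which share replicates, depth and conditions, so r is a description. The 28 values ran from -0.63 to 0.77, with a median of 0.15. The highest was between BnaA01g19100D and BnaA07g04420D, 0.77 over all libraries and 0.40 within conditions. It was 0.79 over the 21 libraries of day 10 and 0.03 over the 12 of day 22. Both genes were chosen as raised under K deprivation, so r over all libraries and day 10 is in part set by that choice. Over day 10 BnaAnng28500D, also chosen under K, had higher r with both, 0.88 with BnaA01g19100D and 0.86 with BnaA07g04420D. The same choice in part sets these values. Within conditions the highest r was 0.58, between BnaA01g19100D and BnaC07g27640D, which had very low counts. The lowest r was between cysteine synthases BnaCnng62620D and BnaC07g27640D, -0.63 over all and -0.27 within conditions, with the second at very low counts. Both were listed under N deprivation with changes of opposite sign, so this r too is in part set by the choice. BnaCnng67980D, the other initiation factor 2B-related gene, had its highest r of 43319 genes with BnaA07g04420D, 0.83. Over the means of the 11 conditions BnaA07g04420D ranked 40. The study lists BnaCnng67980D under K deprivation as well, so this r is in part set by the listing.

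Among 43319 genes with a mean of at least 1 on the log2 CPM scale, the 2 most alike each gene over 33 libraries were BnaA09g39180D (0.96) and BnaA09g21570D (0.87) for BnaAnng28500D, and BnaA10g16880D (0.94) and BnaC08g46780D (0.91) for BnaC09g39920D. For BnaA01g19100D they were BnaA09g27140D (0.91) and BnaC05g22050D (0.90), for BnaA07g04420D BnaC09g11240D (0.88) and BnaA08g18960D (0.87), and for BnaA03g34510D BnaC03g39970D (0.86) and BnaC05g44500D (0.78). For BnaA09g55670D they were BnaC05g33960D (0.86) and BnaA01g24160D (0.85), for BnaCnng62620D BnaAnng12610D (0.84) and BnaA05g36320D (0.81), and for BnaC07g27640D BnaA09g56900D (0.77) and BnaA03g23170D (0.77). Over the means of the 11 conditions BnaA03g23170D ranked 263, BnaC05g33960D 107 and BnaA05g36320D 93. BnaA09g39180D, BnaA10g16880D, BnaA09g27140D and BnaC09g11240D ranked 1, and the rest lay between. BnaC07g27640D had at most 18 counts in a library, which limits its r. The study's list annotates none of the genes named as most alike.

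For sulphate activation and reduction the study lists 21 genes, annotated as ATP sulfurylase, APS kinase or PAPS reductase. These were also chosen by the 10-day contrasts. Of the 21, 10 were listed for N deprivation, 6 for S and 7 for Mg, so the counts and medians below are in large part set by that choice. In N-deprived roots 14 of the 21 fell and 0 rose (11.1% of all genes fell), with a median log2 fold change of -1.23 (0.01 over all genes). In S-deprived roots 7 rose and 0 fell (4.22% of all genes rose), with a median of 0.06 (-0.01 over all genes). In K-deprived roots 0 passed (median 0.29, against -0.01). Mg deprivation raised the APS kinases BnaC03g48570D and BnaA06g25000D and lowered BnaA03g38670D, BnaCnng47170D, BnaA05g37220D and BnaA09g08410D. P deprivation raised BnaA01g34620D and lowered BnaC07g37060D and BnaA06g25000D, and Ca deprivation raised BnaC04g19270D and lowered BnaC03g48570D and BnaA06g25000D. Of all genes, 2.34% rose and 1.24% fell under Mg deprivation, 15.1% and 14.3% under P, and 12.6% and 13.9% under Ca.

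Downstream of cysteine, 13 listed glutathione genes, 1 synthase and 12 transferases that conjugate glutathione to other molecules, were listed by the same contrasts. N deprivation raised BnaA09g14510D, BnaA09g14520D and BnaC05g13360D and lowered the synthase BnaC09g03120D. S deprivation raised BnaC06g41890D and BnaA06g20200D and lowered BnaC05g13360D, BnaA06g11500D and BnaC05g13350D, while K deprivation raised BnaC05g13360D and BnaA06g11500D. The synthase rose under Mg, P and Ca deprivation. BnaC05g13360D and BnaA06g11500D also rose and BnaC06g41890D fell under Ca deprivation. Of all genes, 9% rose and 11.1% fell under N deprivation, 4.22% and 4.63% under S, and 0.916% rose under K. The shares under Mg, P and Ca deprivation are those given above for the sulphate genes.

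**Figure D5:**
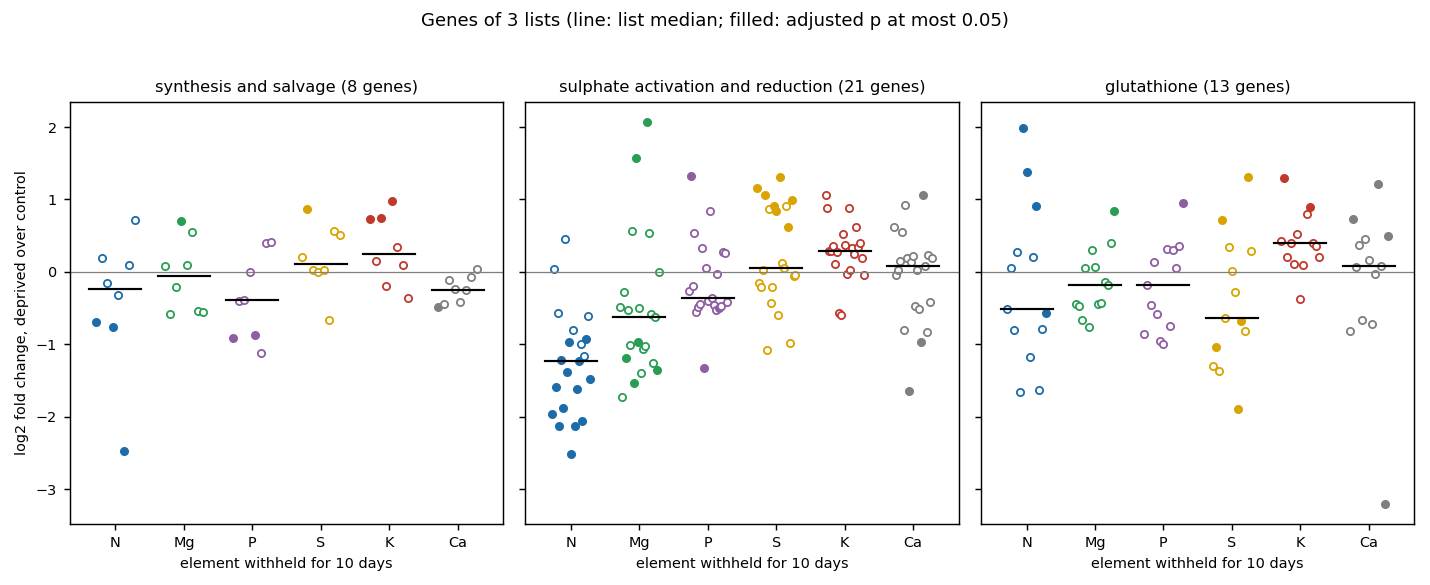
Log2 fold change over the 10-day control of the 8 genes, of 21 sulphate activation and reduction genes and of 13 glutathione genes under each 10-day deprivation (points; filled passed an adjusted p of 0.05; line is the list median). The N-deprived median of the activation and reduction genes is -1.23 and that of the 8 genes is -0.23, both in part set by how the lists were chosen.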

How the data were processed

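Root RNA of 33 libraries (11 conditions, 3 replicates) was sequenced by the authors as stranded paired reads, trimmed, and mapped with STAR, and read pairs that mapped without ambiguity were counted per gene of the Genoscope annotation. The deposited counts give unstranded, forward and reverse columns, of which the reverse column was used. Depth was 10115284 to 22841765 counts per library, which limits the precision of genes at a few counts. Rows that name no gene were left out (63.9 to 76.0% of each library's listed reads lay on genes).

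Libraries were scaled by TMM, low genes removed by filterByExpr, and quasi-likelihood tests fitted with edgeR 4.0.16 (R 4.3.3) over the 21 libraries of day 10, the 12 of day 22, or all 33 for the controls, with Benjamini-Hochberg adjustment. The methods of the study used a likelihood ratio test, which is an alternative here, as are DESeq2 1.42.0, other normalizations and filters, a replicate block, other sets of libraries, unstranded counts, a stricter threshold of 0.01 and leaving out each library. Summing the near-identical 22-day controls was chosen after seeing the data. Whether same-numbered libraries might be paired was judged by whether all 3 correlations of their deviations exceeded 0.1. This held for Co deprivation alone (r of 0.290, 0.156 and 0.471), and the main tests used no pairing. Ca (0.168, 0.0406 and 0.140) and N (0.0148, 0.143 and 0.264) were positive in all 3 but below that limit. The prior count of log2 CPM in the likeness was 2. Scripts were tested on simulated data.

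The genes and lists were chosen with earlier results of these data known. The genes named are the 8, the other genes with the same annotation, the 2 most alike each gene, and list genes where 5 or fewer were counted. None of the 49 identifiers was found in the RefSeq table used, so no sequences or coordinates are given.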

Additional observations from a re-analysis of the deposited data

Results flagged for a closer look

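Counts on the opposite strand were not used in the comparisons. Of 72 pairs of gene and deprivation, 17 had more than 3 such counts. In 3 of the 17 their share lay above that of every control library of the same date. These were 2 of 2 under N and 1 of 2 under K deprivation. Of all genes with more than 3 such counts, the same held for 10.3% under N and 6.11% under K deprivation. BnaA03g34510D had 15 opposite-strand counts in N-deprived roots (0.142% of its counts), against 3 in the 10-day controls. The same gene had 8 in K-deprived roots (0.0840%), against the same 3. Its lowest K-deprived library stood at 0.0575% and its highest 10-day control at 0.0549%. BnaC09g39920D had 17 in N-deprived roots (0.0504%), against 6 in the 10-day controls. These shares lie below that of whole libraries, and their source was not tested.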

How the results depend on the processing

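The count of 0 genes at 22 days held under every alternative run, and no fold change that had passed the threshold changed sign. In place of 11 calls at 10 days, 4 were made when only the compared conditions entered the fit and 4 at an adjusted p of 0.01. By deprivation, S gave 2 calls under the likelihood ratio test, 2 under DESeq2 and 2 under upper-quartile scaling, but 0 under RLE, 0 without a filter, 0 with only the compared conditions and 0 at 0.01. Mg gave 2 under DESeq2, and Mg, K and Ca each gave 0 with only the compared conditions and 0 at 0.01. The controls gave 1 under the likelihood ratio test and 1 under DESeq2. Leaving out 1 library gave 3 to 4 calls for N, 0 to 1 for Mg, 2 to 3 for P, 0 to 2 for S, 0 to 3 for K, 0 to 1 for Ca and 0 to 1 between controls. With the replicate block, S gave 0 and N gave 4, and other comparisons gave the same number as without it. For Co this was 0. There the correlations passed the limit set, and 2 of the 3 libraries correlated best with their own number. For Ca it was 1, and each library correlated best with its own number. Both are hints from the data and not the design, and the main tests used no pairing. Calls over all genes ranged from 34 to 3658 for Mg, 71 to 7058 for S, 20 to 1470 for K, 4916 to 12565 for N, 9255 to 17387 for P, 8470 to 15842 for Ca and 0 to 1469 between controls. Apart from fewer libraries or genes in a fit, the cause of these differences was not tested. Depth limits BnaC07g27640D, which had at most 18 counts in a library.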
